A study of Arabidopsis thaliana with 8 samples.

Results

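Ribosome footprints on mitochondrial mRNAs were compared between flowers of the Arabidopsis thaliana mutant mtsf1 and flowers of the wild type Col-0. The comparison covered all 33 of the 33 mitochondrial genes in the deposited footprint table and used 4 of the study's 8 libraries, 2 (A and B) of each genotype. The genes were not selected by their values. The labels describe mtsf1 as a mutant of a pentatricopeptide repeat (PPR) protein that acts on nad4 mRNA stability, in the Col-0 background, and they name no allele. A second PPR mutant, mtl1, which the labels tie to nad7 mRNA translation in the same background, gave 2 further footprint libraries. These entered the estimate of the spread and the test of whether a change differed between the mutants. Plants of all 3 genotypes grew for 10 to 12 weeks in long days and their flowers were collected together. About 2.5 g of flowers was extracted in 15 mL of buffer. The last 2 libraries of the study are RNA-seq of Col-0, from which only reads at listed editing sites were used here. The number of plants behind a library is not stated. The tissue could not be checked by nuclear marker genes, since the table lists mitochondrial genes only.

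Plant mitochondria keep a small genome that encodes part of the respiratory complexes I, III and IV, of the ATP synthase, of the mitochondrial ribosome and of the machinery that attaches heme to c-type cytochromes. The remaining proteins, PPR proteins among them, are encoded in the nucleus and imported. PPR proteins bind defined RNA sequences and are known to act in the processing, splicing, editing, stability and translation of organellar transcripts. MTSF1 (mitochondrial stability factor 1) is known for protecting the end of the nad4 mRNA. Ribosome profiling (Ribo-seq) sequences the mRNA pieces that ribosomes shield from nuclease, so a gene's footprint count depends on both the amount of its mRNA and the number of ribosomes on each molecule. RNA-seq of the mutant was not analysed here, and the mRNA amount and its translation cannot be told apart in any value below. Nor can fewer mitochondria, or less RNA in each, be read from these values, which were level between libraries by a median ratio given below.

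Each gene has 1 normalized footprint count per library, which the authors scaled by a method not given in the sources used here and rounded to whole numbers. The reads behind these values, and so the sequencing depth, are unknown. Over the 33 genes, the median ratio of a library to each gene's geometric mean was 1.01294 to 1.01312 in the 6 footprint libraries. The deposited values were thus level by that measure, and a rise or fall shared by all genes would not show in them. Nor do the totals measure an absolute amount. The normalized counts summed to 290301 and 270243 in the Col-0 libraries and to 227755 and 216316 in the mtsf1 libraries. Both mtsf1 totals lay below both Col-0 totals, with means of 222036 ± 8089 and 280272 ± 14183 (SD, n = 2). Every comparison is therefore given on 2 scales: as deposited, and as a share of the library total, where all libraries sum to the same value. Moving from the first to the second raised the log2 fold change of every gene by 0.33 to 0.34, and the median over all 33 genes went from 0.03 to 0.36.

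As deposited, limma found 9 of 33 genes higher (27.3%) and 7 lower (21.2%) in mtsf1 than in Col-0 at a Benjamini-Hochberg adjusted p below 0.05. As a share of the total, 14 were higher (42.4%) and 7 lower (21.2%). The 16 genes called as deposited were all called in the same direction as shares, and cob, ccmB, ccmFC, ccmFN2 and rps4 were called higher as shares only. A gene is said to have risen or fallen below where it passed on both scales, unless the scale is named. Values without a test are also given: in 12 genes (36.4%) both mtsf1 libraries lay above both Col-0 libraries as deposited, and in 13 (39.4%) both lay below. Log2 fold changes are on the log2(normalized count + 1) scale and have a standard error of 0.23 as deposited and 0.22 as shares, the same for every gene.

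**Figure D1:**
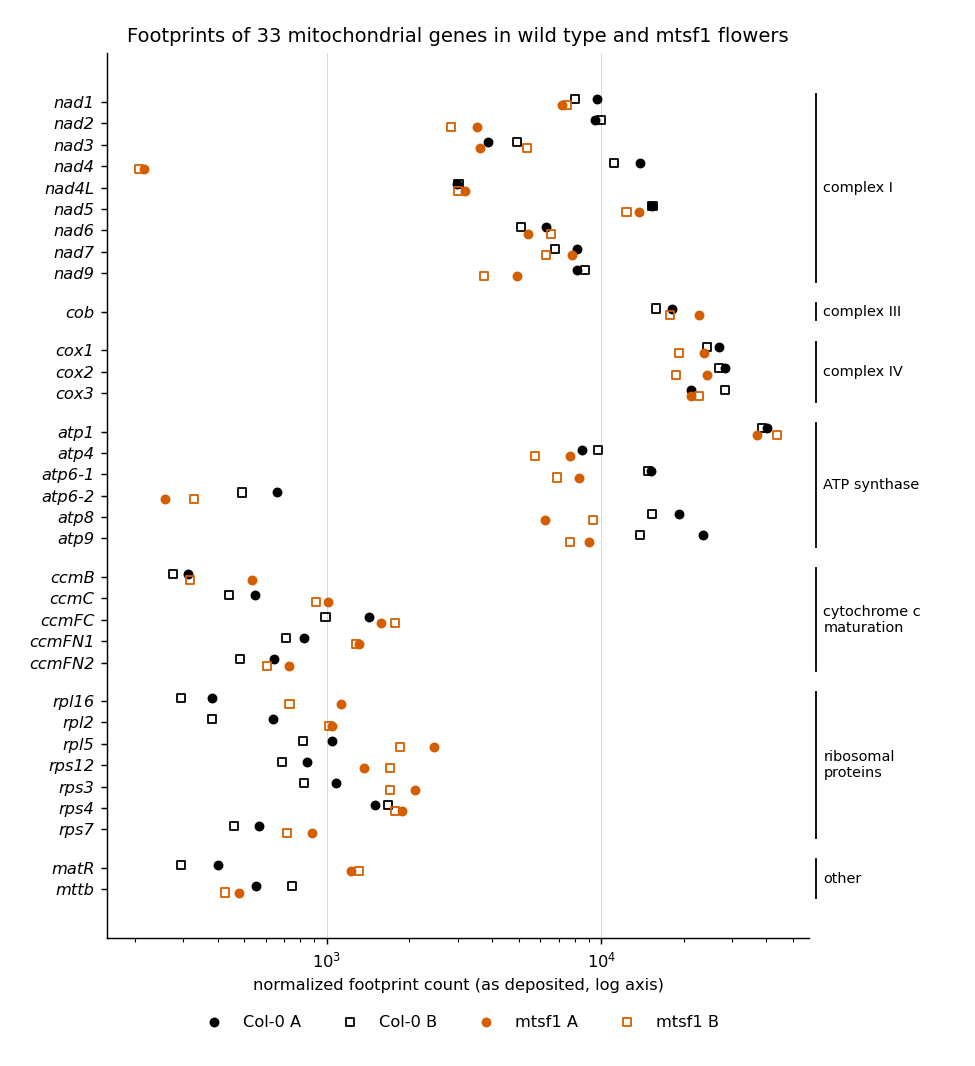
Normalized footprint counts as deposited (log axis) of the 33 mitochondrial genes in Col-0 libraries A and B (black) and mtsf1 libraries A and B (orange), by gene list. nad4 lies at 216 and 207 in mtsf1 and at 13818 and 11147 in Col-0, the widest gap between the genotypes of any gene. The orange points of all 7 ribosomal protein genes and of matR lie to the right of the black ones.

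The genes at the 2 ends of the comparison are shown by sequence: nad4 and nad2, which fell most, and matR, which rose most. For each, the first and the last editing site of the deposited site list is given, as places where the wild type mRNA was read in the Col-0 RNA-seq. Each line is 26 bases of transcript, written with T for U and read 5′ to 3′, and the capital marks the listed site, base 21.
nad4 first site: acatttctgtgaatgctattTtaatc
nad4 last site: tgtttaccccaaagtgttccTggact
nad2 first site: cagaattcgttcggatcctcTcacac
nad2 last site: tcatcaaatggcactcagttTatatc
matR first site: tgtactactatcggccctacTaggca
matR last site: cctcaagtactccaaagactTaaata

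With every C read as T in both, each sequence matched the mitochondrial genome (MT) of the TAIR10.1 assembly at 1 place. The genome itself has C at all 6 sites. The authors may have used another assembly. The nad4 sites lie on the minus strand, the first in coding segment 1 (MT:215529-215554) and the last in coding segment 4 (MT:207630-207655). The last nad4 site was covered by 736 and 1972 reads in Col-0 RNA-seq libraries A and B and the first by 31 and 49. Over all 38 listed nad4 sites the median was 73 reads in A and 135.5 in B, with 1 site unread in B. nad4 mRNA was thus read from its first to its last coding segment in the wild type. The first nad2 site lies on the plus strand, before the annotated coding sequence (MT:161806-161831), with 9 and 33 reads, and the last on the minus strand in coding segment 5 (MT:92824-92849), with 22 and 66. nad2 is trans-spliced, that is, its message is joined from separately transcribed pieces. matR is a single plus-strand coding segment, and its 2 sites (MT:231394-231419 and MT:232915-232940) had 1 and 12 reads, and 0 and 1. The matR mRNA was thus much less read than that of nad4 or nad2 at these sites.

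nad4, the gene named in the mutant's label, encodes a proton-pumping subunit in the membrane arm of complex I, the NADH dehydrogenase that starts the respiratory chain. Its 4 coding segments are on the minus strand, from MT 207580 to 215562. The Col-0 libraries held 13818 and 11147 normalized counts of it and the mtsf1 libraries 216 and 207. The mtsf1 values were low in both libraries but not 0. The deposited change was 58.4-fold (log2 fold change -5.87, 95% interval -6.33 to -5.40, limma adjusted p = 3.3e-43). As a share of the total, nad4 held 4.76% and 4.12% in Col-0 and 0.0948% and 0.0957% in mtsf1, a 46.3-fold change (limma adjusted p = 2.1e-43). Per kilobase of coding sequence it had 8389 ± 1269 normalized counts in Col-0, the sixth highest of the 9 complex I genes, and 142 ± 4.28 in mtsf1, the lowest of the 31 genes with a known coding length. nad4 alone made up 21.1% of the difference between the mean totals of the genotypes.

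In complex I, 3 of 9 genes fell (nad4, nad2 and nad9), none rose and 6 did not pass on either scale, beside 21.2% of all 33 genes called lower on each scale. When the 5 highest genes were left out of the total, nad3, nad4L, nad6 and nad7 passed as higher shares (log2 fold changes 0.61, 0.64, 0.67 and 0.51) and nad9 no longer passed as a lower one (-0.38). The median log2 fold change of the 9 genes was -0.24 as deposited and 0.10 as shares, beside 0.03 and 0.36 over all 33 genes.

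nad2 encodes another membrane arm subunit related to that of nad4. Its 5 coding segments lie in separate parts of the genome on both strands. Its normalized counts were 9486 and 9988 in the wild type and 3531 and 2833 in the mutant, with no overlap. The gene fell 3.08-fold as deposited (log2 fold change -1.62, 95% interval -2.09 to -1.16, limma adjusted p = 4.6e-09) and 2.44-fold as a share (limma adjusted p = 2.2e-07). nad9 encodes a subunit of the matrix arm, near the path of electrons to ubiquinone, on the plus strand at MT:24665-25237. Its values were 8180 and 8716 in Col-0 and 4923 and 3746 in mtsf1, again with no overlap. nad9 fell 1.97-fold as deposited (log2 fold change -0.98, limma adjusted p = 0.00018) and 1.56-fold as a share (limma adjusted p = 0.0085). The share call of nad9 was lost without Col-0 B or without mtsf1 B.

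The other 6 complex I genes lay within a log2 fold change of -0.26 and 0.08 as deposited and of 0.07 and 0.41 as shares. nad7, a matrix arm subunit, had 8132 and 6785 normalized counts in Col-0 and 7839 and 6273 in mtsf1, so the libraries overlapped. nad5, the third of the related proton-pumping subunits, had 15349 and 15375 in Col-0 and 13715 and 12360 in mtsf1. Both mtsf1 values of nad5 lay lower, yet as shares they lay higher, at 6.02% and 5.71% beside 5.29% and 5.69%. nad1, a membrane subunit at the ubiquinone site, went from 9643 and 8025 to 7203 and 7480. It lay at -0.26 as deposited and 0.07 as a share. The small membrane subunits nad3, nad4L and nad6 lay at 0.02, 0.05 and 0.08 as deposited. Of these, nad4L varied least over the 4 libraries, with 2983 and 3018 in Col-0 and 3190 and 3006 in mtsf1. nad3 had 3856 and 4934 beside 3625 and 5379, and nad6 had 6297 and 5094 beside 5432 and 6553. For the 6 genes together, the 95% intervals as deposited ran from -0.72 at the lowest (nad1) to 0.54 at the highest (nad6).

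Per kilobase of coding sequence, nad9, nad2 and nad4 moved down past other complex I genes, which kept their order among themselves. In Col-0, nad9 was highest (14743 ± 661 normalized counts per kilobase, SD, n = 2), followed by nad3 (12311 ± 2135) and nad4L (9903 ± 81.7). In mtsf1, nad3 was highest (12611 ± 3474), and nad4L (10224 ± 429) and nad6 (9697 ± 1283) came next, with libraries of the 3 that overlapped. nad9 (7565 ± 1452) then had the fourth place, next to nad1 (7507 ± 200.3), and these 2 did not differ beyond their spread. nad2 went from 6637 ± 242 to 2169 ± 336 and had rank 8 of the 9 in both genotypes. It lay above nad7 (6294 ± 804) in Col-0, within its spread, and well above nad4 in mtsf1. nad7 went from rank 9 in Col-0 to rank 7 in mtsf1 (5954 ± 934).

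As a sum, complex I held 26.8% and 27.0% of the total in the Col-0 libraries and 21.8% and 22.1% in the mtsf1 libraries, a difference of -4.95 percentage points. nad4 accounted for most of it. Without nad4, the other 8 genes held 22.02% and 22.92% of the full total in Col-0 and 21.72% and 22.019% in mtsf1, so that the higher mtsf1 library lay just below the lower Col-0 library. With nad4 also taken out of the total, the difference was -1.63 percentage points. In normalized counts the complex I sum was 75413 in Col-0 and 48755.5 in mtsf1 (means of 2 libraries).

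**Figure D2:**
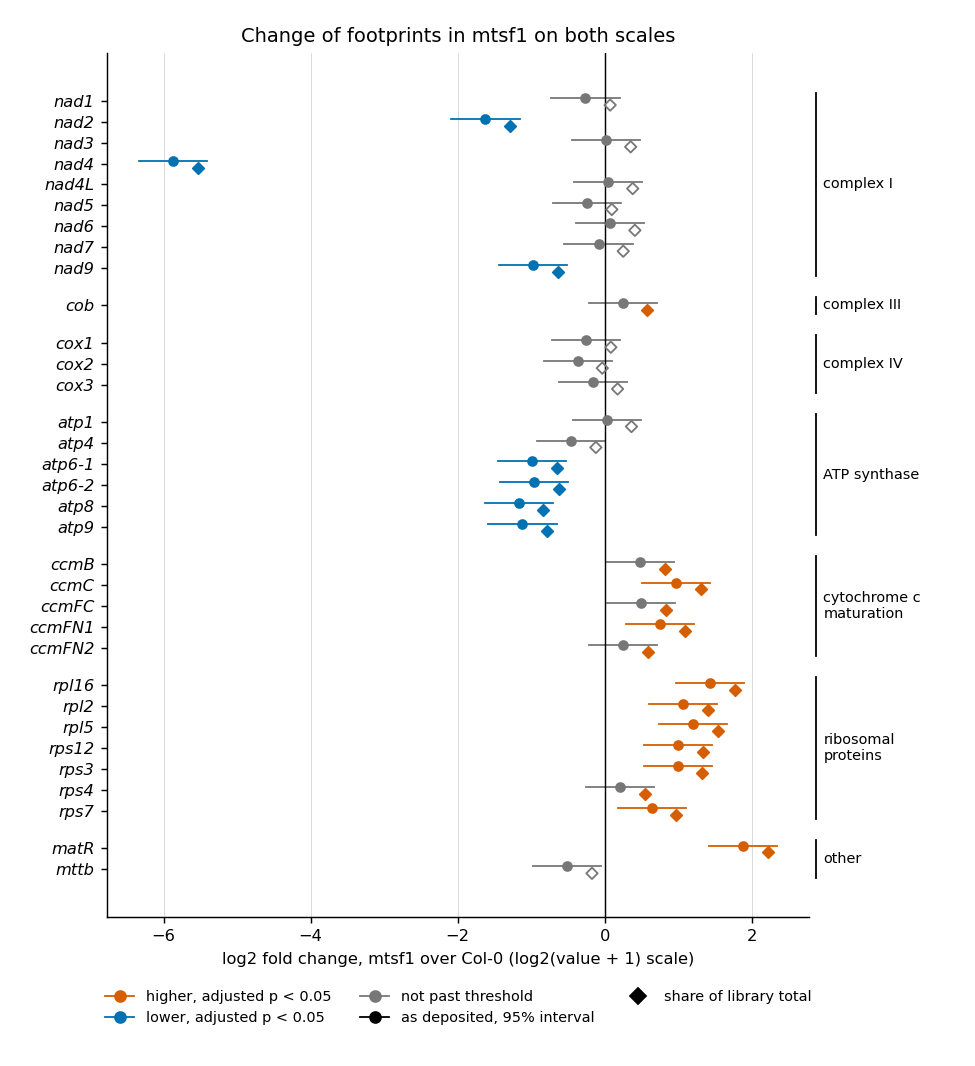
Log2 fold change of each gene, mtsf1 over Col-0, as deposited (circles, with 95% intervals) and as share of the library total (diamonds), coloured by whether limma called the gene higher (orange) or lower (blue). nad4 (-5.87 as deposited) lies far to the left, nad2, nad9 and 4 ATP synthase genes are blue on both scales, and all diamonds lie 0.33 to 0.34 to the right of their circles.

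cob encodes the apocytochrome b of complex III, the only subunit of that complex encoded in the organelle. It had 18163 and 15863 normalized counts in Col-0 and 22712 and 17816 in mtsf1, which overlapped as deposited (log2 fold change 0.24, limma adjusted p = 0.39). As shares the values were 6.26% and 5.87% in Col-0 and 9.97% and 8.24% in mtsf1, without overlap (log2 fold change 0.58, limma adjusted p = 0.016). The cob call as a share was lost by leaving out Col-0 A, Col-0 B or mtsf1 A.

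None of the 3 complex IV genes, which encode the core subunits of cytochrome c oxidase, passed on either scale. cox1, the heme-copper subunit that reduces oxygen, had 26796 and 24217 normalized counts in Col-0 and 23791 and 19241 in mtsf1. cox2, which takes electrons from cytochrome c, had 28232 and 26925 beside 24330 and 18750. Both genes were lower in both mtsf1 libraries as deposited, with log2 fold changes of -0.25 and -0.37, and overlapped as shares, with 0.08 and -0.03. cox3, the third core subunit, had 21300 and 28300 in Col-0 and 21204 and 22760 in mtsf1, and its Col-0 libraries differed more from each other than the genotypes did. As a sum, complex IV held 26.3% and 29.4% of the total in Col-0 and 30.4% and 28.1% in mtsf1. These ranges overlapped, and the difference of 1.42 percentage points turned to -0.14 without Col-0 A.

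In the ATP synthase, the genes that fell encode subunits of its membrane part. The gene of another subunit anchored in the membrane, atp4, did not pass. Of 6 genes, 4 fell (atp8, atp9, atp6-1 and atp6-2), none rose, and atp1 and atp4 did not pass on either scale, beside 21.2% of all genes called lower on each. With the 5 highest genes left out of the total, atp1 passed as a higher share (0.62) and atp6-1 (-0.39) and atp6-2 (-0.37) no longer passed. The median log2 fold change was -0.97 as deposited and -0.64 as shares, beside 0.03 and 0.36 over all genes.

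atp8, a small membrane subunit, had 19220 and 15337 normalized counts in Col-0 and 6228 and 9344 in mtsf1. It fell 2.25-fold as deposited (log2 fold change -1.17, 95% interval -1.63 to -0.71, limma adjusted p = 1.3e-05) and 1.78-fold as a share. atp9, the subunit that forms the rotating ring, had 23516 and 13878 in Col-0 and 9004 and 7687 in mtsf1. The Col-0 libraries of atp9 differed by 0.76 on the log2 scale, the widest gap of any gene in Col-0, yet both lay above both mtsf1 libraries. atp9 fell 2.17-fold as deposited (log2 fold change -1.12, 95% interval -1.58 to -0.65, limma adjusted p = 2.8e-05). atp6 encodes the channel subunit next to the ring, and the genome carries 2 copies that share most of their sequence. Reads could have been split between the copies in counting, so their single values are uncertain. atp6-1 had 15141 and 14779 in Col-0 and 8294 and 6892 in mtsf1 (1.98-fold lower, limma adjusted p = 0.00017), and atp6-2 had 658 and 491 beside 258 and 329 (1.95-fold lower, limma adjusted p = 0.00019). Neither copy overlapped between the genotypes, beside 39.4% of all 33 genes that lay lower in mtsf1 without overlap as deposited.

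atp1, the catalytic-head subunit alpha, had 40246 and 38577 normalized counts in Col-0 and 36851 and 43842 in mtsf1. Its log2 fold change was 0.03 as deposited and 0.36 as a share. atp4, of the stalk that holds the head, had 8521 and 9728 beside 7698 and 5725, both lower in mtsf1 (log2 fold change -0.46, limma adjusted p = 0.089), and overlapped as shares (-0.12). As a sum, the 6 genes held 37.0% and 34.3% of the total in Col-0 and 30.0% and 34.1% in mtsf1. Without atp1, the other 5 held 21.6% ± 2.15 (SD, n = 2) in the wild type and 13.8% ± 0.0249 in the mutant, while atp1 itself went from 13.9% and 14.3% to 16.2% and 20.3%. As shares, the calls of all 4 genes that fell were lost with 1 or another library left out: atp8 without Col-0 A or mtsf1 A, atp9 without Col-0 A or mtsf1 B, atp6-2 without Col-0 A or mtsf1 A, and atp6-1 without any 1 of the 4 libraries compared. As deposited, all 4 held with any 1 of the 6 libraries left out.

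Cytochrome c maturation genes encode parts of the pathway that attaches heme to c-type cytochromes. Of 5 genes, 2 rose on both scales (ccmC and ccmFN1) and 3 only as shares (ccmB, ccmFC and ccmFN2). Of all 33 genes, 27.3% were called higher as deposited and 42.4% as shares, so the count as deposited is not far from that of all genes. The median log2 fold change was 0.49 as deposited and 0.83 as shares, beside 0.03 and 0.36 over all genes. ccmC, which handles heme on its way to the carrier protein CcmE, had 547 and 439 normalized counts in Col-0 and 1007 and 916 in mtsf1. It rose 1.96-fold as deposited (log2 fold change 0.97, 95% interval 0.51 to 1.43, limma adjusted p = 0.00018) and 2.47-fold as a share. ccmFN1 and ccmFN2 each encode a piece of the heme lyase subunit CcmFN, which is split into separate genes in Arabidopsis. ccmFN1 had 827 and 711 in Col-0 and 1305 and 1278 in mtsf1 and rose 1.68-fold (log2 fold change 0.75, limma adjusted p = 0.0039). ccmFN2 had 644 and 483 beside 727 and 605, which overlapped as deposited (log2 fold change 0.25, limma adjusted p = 0.39). ccmFC, the other heme lyase subunit, went from 1428 and 989 to 1582 and 1774, higher in both libraries but not past the threshold as deposited (log2 fold change 0.49, limma adjusted p = 0.067). ccmB, a membrane part of the transporter that serves the pathway, had 311 and 276 beside 533 and 316, and its mtsf1 libraries differed by 0.75, the widest gap of any gene in mtsf1. Together the 5 genes held 1.29% and 1.07% of the total in Col-0 and 2.26% in each mtsf1 library. As shares, the calls of ccmB and ccmFN2 were lost by leaving out Col-0 B or mtsf1 A.

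The ribosomal protein list had the largest share of genes that rose. Of 7 genes, 6 rose on both scales and rps4 only as a share, and none fell, beside 27.3% and 42.4% of all genes called higher on the 2 scales. The median log2 fold change was 1.0 as deposited and 1.34 as shares, beside 0.03 and 0.36 over all genes. rpl16, of the large ribosomal subunit, had 382 and 295 normalized counts in Col-0 and 1126 and 731 in mtsf1. It rose 2.70-fold as deposited (log2 fold change 1.43, 95% interval 0.97 to 1.9, limma adjusted p = 1.5e-07) and 3.40-fold as a share. rpl5, also of the large subunit, had 1040 and 820 beside 2452 and 1849 and rose 2.30-fold (log2 fold change 1.20, 95% interval 0.74 to 1.67, limma adjusted p = 8.6e-06). rpl2, the last large subunit gene measured, had 634 and 380 beside 1047 and 1015 and rose 2.10-fold (log2 fold change 1.07, limma adjusted p = 5.7e-05). None of the 3 large subunit genes overlapped between genotypes, beside 36.4% of all 33 genes that lay higher in mtsf1 without overlap as deposited.

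Of the small subunit genes, rps12 had 845 and 684 normalized counts in Col-0 and 1365 and 1696 in mtsf1, a log2 fold change of 1.0. rps3 had 1084 and 823 beside 2090 and 1695, a log2 fold change of 0.99. rps3 and rpl16 overlap by 134 bases on the same strand, so reads in the overlap could have been counted for both or for neither. rps7 went from 568 and 459 to 885 and 715 (log2 fold change 0.64, limma adjusted p = 0.015), and its call as deposited was lost by leaving out Col-0 B or mtsf1 A. rps4 had the smallest change of the 7, from 1504 and 1666 to 1886 and 1771 (log2 fold change 0.21, limma adjusted p = 0.46). Its call as a share was lost without Col-0 A, mtsf1 A or mtsf1 B. Summed, the 7 genes held 2.09% and 1.9% of the total in Col-0 and 4.76% and 4.38% in mtsf1. Their summed normalized counts were 5592 in Col-0 and 10161.5 in mtsf1 on the scale of the deposited values (means of 2 libraries).

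matR encodes a maturase, a protein that acts in the splicing of organellar introns, and lies within an intron of nad1 at MT:231089-233059 on the plus strand. It had 400 and 293 normalized counts in Col-0 and 1229 and 1306 in mtsf1. Both mtsf1 libraries lay about equally far above both Col-0 libraries. matR rose 3.69-fold as deposited (log2 fold change 1.88, 95% interval 1.42 to 2.35, limma adjusted p = 2.9e-11) and 4.66-fold as a share (limma adjusted p = 9.6e-16), more than any other gene. Per kilobase of coding sequence it was the lowest of 31 genes in Col-0 (176 ± 38.4 normalized counts) and lay at rank 29 in mtsf1 (643 ± 27.6). nad1, whose coding segments flank it at distances of 726 and 814 bases, did not pass (log2 fold change -0.26). mttb, a gene for a membrane protein related to the bacterial TatC translocase, had 550 and 748 beside 477 and 426, lower in both mtsf1 libraries as deposited (log2 fold change -0.51, limma adjusted p = 0.062) and overlapping as a share (-0.17).

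**Figure D3:**
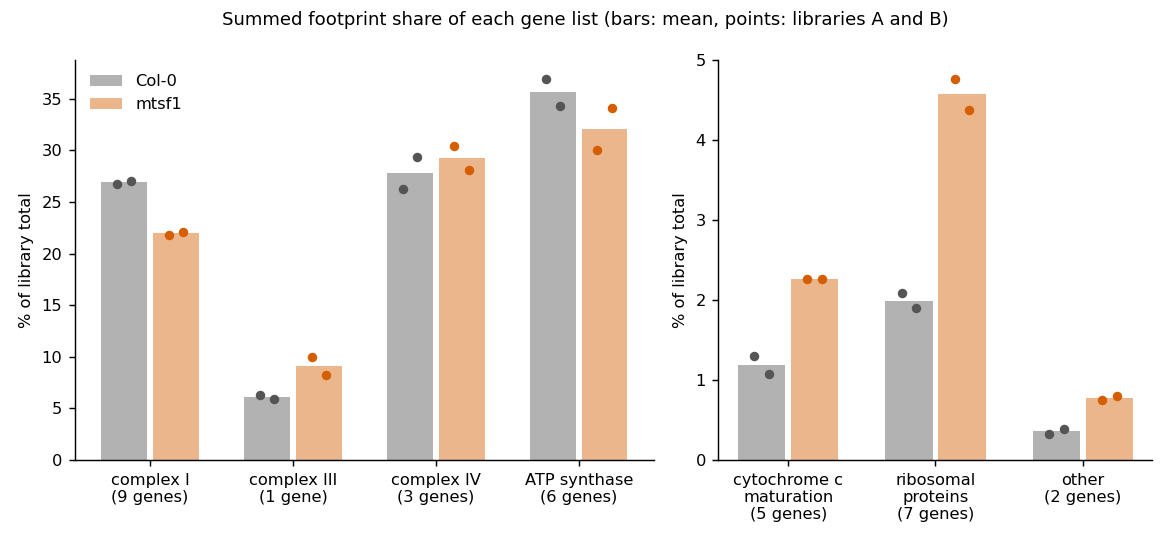
Share of the library total held by each gene list in Col-0 (grey) and mtsf1 (orange), with bars for the mean of 2 libraries and points for libraries A and B; the right panel has its own axis. Complex I went from 26.8% and 27.0% to 21.8% and 22.1%, ribosomal proteins from 2.09% and 1.9% to 4.76% and 4.38%, and the points of complex IV overlap.

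A few genes made up most of the losses behind the lower total of mtsf1. The mean total differed by -58236.5 normalized counts, or -20.8%, which is the balance of losses summing to -70108.5 over 15 genes and gains of 11872 over 18 genes. Beside nad4 (21.1% of the difference), the largest losses were those of atp9 (17.8%), atp8 (16.3%), atp6-1 (12.7%), nad2 (11.3%) and cox2 (10.4%). The genes that rose had few footprints per gene (not divided by length), so their gains were small on this scale. Of the 15 genes with a Col-0 mean below 3000 normalized counts, 9 rose, 1 fell (atp6-2) and 5 did not pass as deposited, with a median log2 fold change of 0.75. Of the 18 genes above that level, none rose, 6 fell and 12 did not pass, with a median of -0.26. As shares these medians were 1.09 and 0.08. The bound of 3000 was chosen after the values were seen. The Col-0 mean is also part of the fold change, so spread in the Col-0 libraries alone would tilt this split the same way. The split is therefore a description and no test of a link with level.

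Levels measured in other libraries showed the same order. Against the mean normalized count in mtl1, which is not part of the fold change, the log2 fold change of the 33 genes had a Spearman rho of -0.54 and a Pearson r of -0.45, and rho was -0.56 over the 31 genes without nad4 and nad7. Against Col-0 RNA-seq reads per listed editing site, rho was -0.73 over the 29 genes with listed sites. The 9 genes that rose had a median of 7.25 reads per site, the 4 that fell and have sites 120, and the 16 others 68.1. Genes that rose also had a higher GC content of the coding sequence (median 43.5%) than those that fell (39.7%) or did not pass (41.4%), with rho of 0.55 over 31 genes. The ranges overlapped: 41.8% to 51.4% in the 9 that rose and 39.4% to 42.2% in the 5 that fell and have a coding length. In the 17 others GC content ran from 35.3% to 47.7%. Coding length showed no such order (rho -0.004). These are descriptions across genes that share their libraries. How level, GC content and gene list relate to each other was not tested, so they are not told apart here. Whether low counts, or the normalization of low counts, had a part in the rises was not tested.

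**Figure D4:**
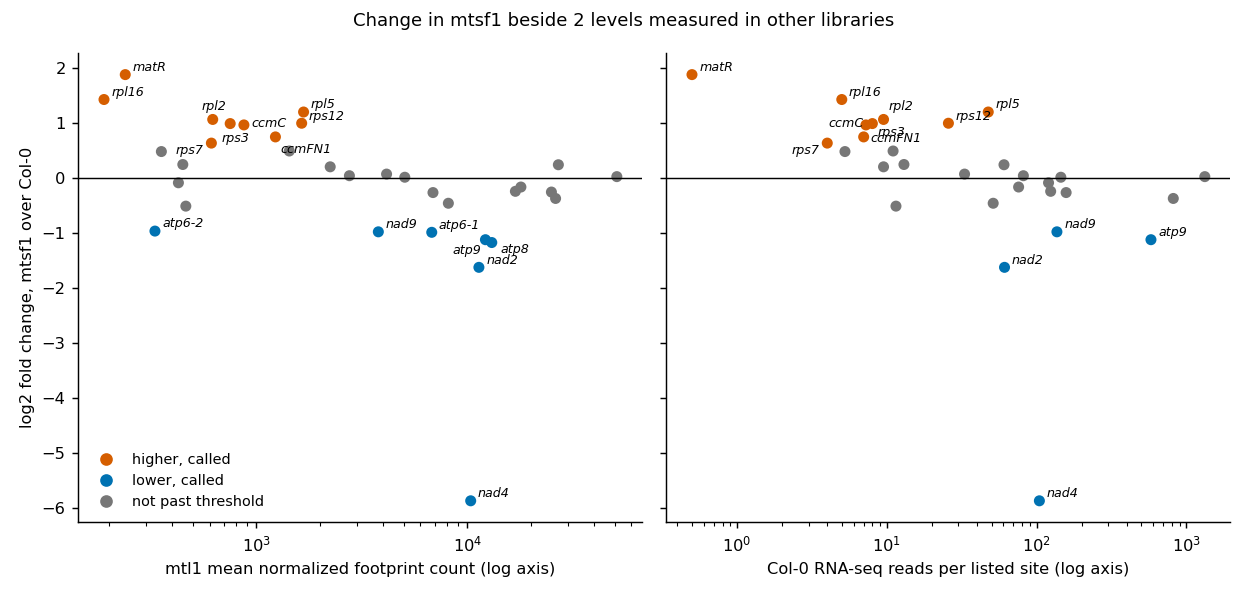
Log2 fold change of each gene, mtsf1 over Col-0 as deposited, against its mean normalized footprint count in mtl1 (left, 33 genes) and against Col-0 RNA-seq reads per listed editing site (right, 29 genes), both on log axes. On the left, the genes called higher (orange) have mtl1 means of 1674.5 or less; on the right, 7 of the 9 have at most 9.50 reads per site, while rps12 (25.75) and rpl5 (47.5) lie further along the axis.

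Neighbouring genes on 1 strand were compared by their calls as deposited, beside 27.3% of all genes called higher and 21.2% lower. Of 8 pairs of neighbours at most 1000 bases apart, both genes were called in the same direction in 1 pair, the overlapping rps3 and rpl16. In 1 pair the calls were opposite: rpl16 rose and nad9, which begins 840 bases after it, fell. In 4 pairs a single gene was called, such as rps12, which rose and lies 45 bases after nad3 (log2 fold change 0.02), and nad2, which fell and whose first segments follow rps4 (0.21) at 763 bases. In the other 2 pairs neither gene was called. With so few pairs, nothing is read from these counts.

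The spread between libraries of 1 genotype was small beside the largest changes and close to the smaller ones. Libraries A and B differed by a median of 0.31 on the log2 scale in Col-0 and 0.27 in mtsf1. In 20 of 33 genes the change between the genotypes exceeded both differences between libraries, and these included all 16 genes called as deposited along with nad5, atp4, rps4 and mttb. With any 1 of the 6 libraries left out, 15 of the 16 deposited calls held in every fit, all but rps7. As shares, 12 of 21 held in every fit: nad2, nad4, ccmC, ccmFC, ccmFN1, rpl16, rpl2, rpl5, rps12, rps3, rps7 and matR.

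The limma fit gave all genes 1 common variance, and the calls depend on that. With each gene's own variance, only nad4, nad2, matR and ccmFN1 passed as deposited (limma adjusted p = 0.00088, 0.021, 0.026 and 0.042). As shares, 10 passed by that setting: nad2 and nad4, which fell, and ccmC, ccmFN1, rpl16, rpl2, rpl5, rps3, rps7 and matR, which rose. None of the 4 ATP synthase genes that fell passed by it on either scale, with limma adjusted p from 0.085 to 0.20.

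The test of mtsf1 against mtl1 asked which of these changes differed between the mutants. As deposited, 5 of 33 genes were higher in mtsf1 than in mtl1 (15.2%) and 3 lower (9.09%) by limma. As shares 10 were higher (30.3%) and 3 lower (9.09%). nad4 (log2 difference -5.61), nad2 (-1.84) and atp8 (-0.77) were lower in mtsf1 on both scales. nad7, the gene named in the label of mtl1, was higher (4.04), with 7839 and 6273 normalized counts in mtsf1 and 460 and 394 in mtl1. matR (2.40), rpl16 (2.28), rps3 (1.33) and rpl2 (0.73) were also higher. As shares only, ccmFN2 (0.82), nad6 (0.80), rps7 (0.62), rpl5 (0.59) and cox3 (0.53) passed as higher too. Those share-only genes did not pass with each gene's own variance. nad2 had 11643 and 11068 in mtl1, above both Col-0 libraries, and 3531 and 2833 in mtsf1. matR had 251 and 227 in mtl1, below both Col-0 libraries, and 1229 and 1306 in mtsf1. As deposited, the differences of atp8 and rpl2 were lost without mtl1 A or mtsf1 A. As shares, rpl2 passed with any library left out, and atp8 was lost by leaving out Col-0 A, Col-0 B, mtl1 A or mtsf1 A. With each gene's own variance neither passed on either scale.

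Several genes that changed in mtsf1 did not pass the test of that difference. nad9 had 3978 and 3597 normalized counts in mtl1 beside 4923 and 3746 in mtsf1 (log2 difference 0.18, 95% interval -0.28 to 0.65). atp6-1 had 4944 and 8629 beside 8294 and 6892 (0.21, 95% interval -0.25 to 0.67), and rps12 had 1923 and 1357 beside 1365 and 1696 (-0.09, 95% interval -0.55 to 0.38). For ccmC (0.15), ccmFN1 (0.07), rpl5 (0.35), rps7 (0.38), atp6-2 (-0.18) and atp9 (-0.55) the difference did not pass as deposited either, though rpl5 and rps7 passed as shares. The intervals leave room for differences of about the size of the smaller changes. Both mutants were set against the same 2 Col-0 libraries, so their changes from the wild type are not independent of each other.

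**Figure D5:**
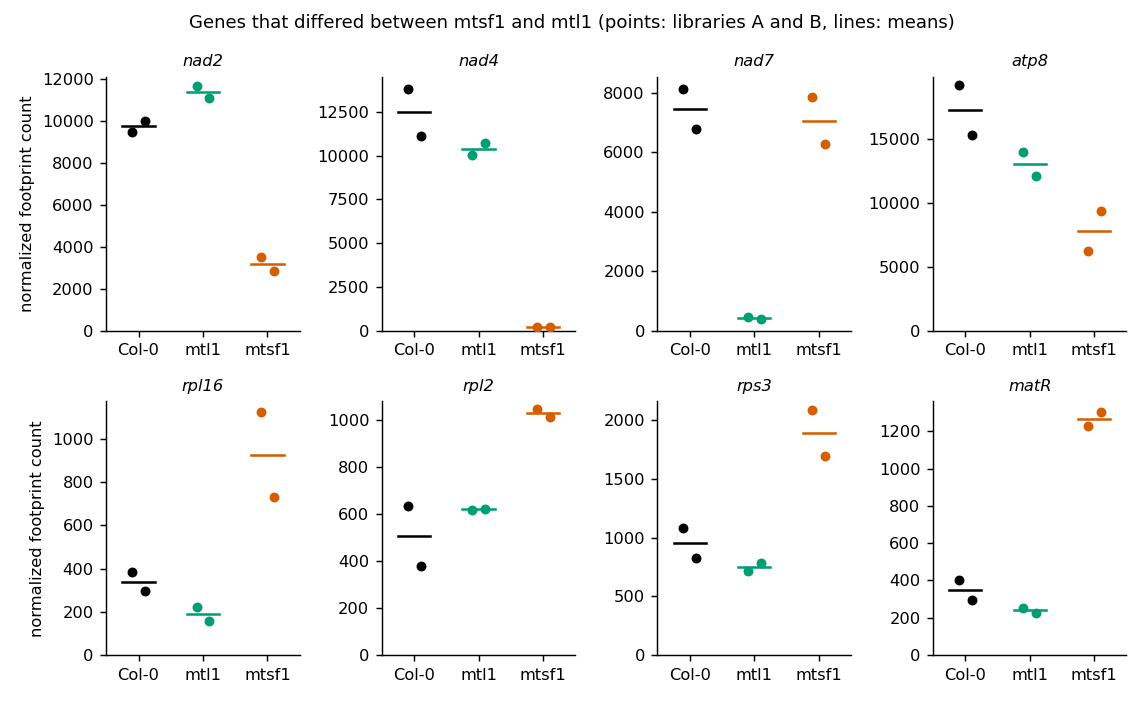
Normalized footprint counts of the 8 genes that differed between mtsf1 and mtl1 as deposited. Points are libraries A and B of Col-0 (black), mtl1 (green) and mtsf1 (orange), with lines at the means. Each panel has its own axis from 0. nad2, nad4 and atp8 are lowest in mtsf1, nad7 is low in mtl1 alone (460 and 394), and rpl16, rpl2, rps3 and matR are highest in mtsf1.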

How the data were processed

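Per the submitters' processing notes, the authors used FastQC, cutadapt 1.9.1, Bowtie 1.1.2 and featureCounts 1.5.0-p2. The sources used here do not give the build, annotation, normalization, strand setting or treatment of reads with several matches. The deposited footprint table holds 1 score for each gene in each library, which is a read count normalized and rounded by the authors. The deposited editing tables give counts of reads by base per listed site in Col-0 RNA-seq, and an editing fraction that was not analysed here.

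The test was limma 3.58.1 (R 4.3.3), run on log2(normalized count + 1) in a joint model of the 6 footprint libraries with a term per genotype, two-sided, with Benjamini-Hochberg adjustment over 33 genes. The filter, above 0 in at least 2 libraries, kept all genes. The prior was infinite, so each test had 99 degrees of freedom, where a gene alone would have 3. For 2 libraries against 2, the smallest exact permutation p is 0.333, and no such test was run. Whether A and B are separate plants is not in the labels: p-values measure only the spread between libraries, possibly technical. Shares are the value over the library's sum. The fit was tested on simulated data in which all genes had a common spread. That test therefore cannot show whether a common variance holds for these genes. Python 3.11.15, numpy 2.4.6, pandas 2.3.3 and matplotlib 3.10.9 were used. Positions and coding lengths are from TAIR10.1, counted from 1, and 31 of 33 gene names matched 1 gene (not the atp6 copies). All 33 genes are named, nad4 first, with full statistics for the largest changes of each list. The genes and lists were chosen with earlier results of these data known. Alternatives covered pseudocounts of 0.1 and 10, filters, scalings, variance settings, a library-letter term and leaving out each library.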

Additional observations from a re-analysis of the deposited data

How the results depend on the processing

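With 1 library left out, as deposited 8 to 10 genes were higher and 7 to 8 lower than in Col-0, and as shares 10 to 14 and 3 to 7. Against mtl1 these ranges were 4 to 7 and 2 to 3 as deposited and 5 to 10 and 2 to 3 as shares. With a mean of at least 1000, which leaves 24 genes by construction, 5 genes were higher as deposited and 7 as shares, and against mtl1 3 and 5. With each gene's own variance, 2 were higher and 2 lower as deposited, 8 higher and 2 lower as shares, and 4 higher than mtl1 as shares. Without the 5 highest genes in the total, 19 were higher and 4 lower as shares: nad3, nad4L, nad6, nad7 and atp1 were added as higher, nad9, atp6-1 and atp6-2 were lost, and cox2 (0.23), atp4 (0.14) and mttb (0.087) turned positive. Without nad4 in the total, complex I differed by -1.63 percentage points. The settings against mtl1, other than shares and own variance, were chosen after seeing the data.

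Signs of changes near 0 turned with 1 library left out: as deposited nad3 (-0.27 to 0.30), nad6 (-0.078 to 0.23), nad7 (-0.24 to 0.078), cox3 (-0.37 to 0.045) and atp1 (-0.097 to 0.15); as shares nad1 (-0.0064 to 0.16), cox1 (-0.032 to 0.20), cox2 (-0.18 to 0.12), cox3 (-0.081 to 0.43), atp4 (-0.30 to 0.056) and mttb (-0.45 to 0.10). Complex IV ranged from -0.14 to 2.97 percentage points. The cause was not tested.

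With the library letter as a replicate block, 9 genes were higher and 7 lower as deposited, and 14 and 7 as shares, as without it. The letters are not stated to pair libraries, and deviations of same-lettered libraries had r = 0.0039 (Col-0 and mtsf1), 0.066 (Col-0 and mtl1) and -0.14 (mtl1 and mtsf1) over 33 genes. Having 2 libraries a genotype and unknown depth limit all comparisons.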
